A study of Rattus norvegicus with 24 samples.

Results

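The genes described here are 9 that are classically followed in inflammation and its control by glucocorticoids, chosen by Ensembl identifier. Of these 9, 7 are among the 30560 gene identifiers counted in the files used here, from lung and liver of neonatal rats. The 9 are the chemokine Ccl2 (ENSRNOG00000007159), the cytokines Il1b (ENSRNOG00000004649) and Il6 (ENSRNOG00000010278), the enzymes Ptgs2 (ENSRNOG00000002525) and Nos2 (ENSRNOG00000011023), the adhesion molecule Icam1 (ENSRNOG00000020679), the receptor Tlr4 (ENSRNOG00000010522), and the inhibitors Nfkbia (ENSRNOG00000007390) and Dusp1 (ENSRNOG00000003977). The symbols are those that the list of identifiers pairs with them. The other two, Nos2 and Dusp1, are not analysed here. The 6 groups were Sprague Dawley pups of genotype WT given desisobutyryl ciclesonide at 1.25 mg/kg, dexamethasone at 0.1 mg/kg or vehicle, which was 2.5% ethanol, with lung and liver sequenced for each treatment and 4 libraries per group. The 5 daily subcutaneous injections began on postnatal day 1 and tissue was frozen on postnatal day 6, 24 hours after the last one, from pups nursed by their mothers.

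Nfkbia encodes an inhibitor that holds the transcription factor NF-kB in the cytoplasm. NF-kB drives many inflammatory genes, among them Ccl2, Il1b, Il6, Ptgs2 and Icam1, and it also drives Nfkbia, which closes a negative feedback loop. Glucocorticoids act through the glucocorticoid receptor, which represses many targets of NF-kB and can induce inhibitors such as Nfkbia and the phosphatase Dusp1. Dexamethasone is a synthetic glucocorticoid that carries fluorine, and desisobutyryl ciclesonide, the active metabolite of the inhaled drug ciclesonide, carries none and has a cyclohexyl-bearing acetal ring instead. Because the doses differed, no value below compares the drugs at a matched dose, and both drugs are set against the same vehicle libraries.

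The promoter of Nfkbia is shown because Nfkbia had the largest rise with dexamethasone among the genes described here. That of Il1b is shown because Il1b stood higher in lung but lower in liver under dexamethasone. In lung its groups overlapped, and the call was lost in 8 of 16 alternative analyses. Each promoter is the stretch of 250 bases before the RefSeq start of the gene in build GRCr8, written 5′ to 3′ on the strand of the gene. That build is not the one the authors counted on, mRatBN7.2. Both strands were searched. Capitals mark a match to an NF-kB-like pattern, which is in Nfkbia and not in this window of Il1b.
Nfkbia, chr6:78597073-78597322, minus strand: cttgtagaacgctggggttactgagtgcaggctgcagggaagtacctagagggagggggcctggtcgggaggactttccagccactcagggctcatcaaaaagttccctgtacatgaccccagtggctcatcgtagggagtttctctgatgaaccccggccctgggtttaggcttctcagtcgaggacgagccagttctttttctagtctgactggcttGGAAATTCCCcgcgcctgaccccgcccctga
Il1b, chr3:137036582-137036831, minus strand: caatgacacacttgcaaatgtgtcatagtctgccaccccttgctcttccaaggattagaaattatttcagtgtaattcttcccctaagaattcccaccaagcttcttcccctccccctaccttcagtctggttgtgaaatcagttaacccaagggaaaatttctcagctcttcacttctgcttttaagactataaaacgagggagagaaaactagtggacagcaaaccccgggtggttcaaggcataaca
A promoter was found in the RefSeq table for 6 of the 7 genes with counts. The NF-kB-like pattern lay in 2 of these 6 windows. Only exact matches were counted, so near matches went unmarked. The Icam1 window holds ggaaattcct, which departs from the pattern on the other strand at its last letter. In Nfkbia it lay 31 to 22 bases before the start, on the other strand, and in Il6 it lay 68 to 59 bases before the start. Of 33469 promoter windows of the same length, 4.53% held it. Il6 also held the cAMP response element-like pattern TGACGTCA, present in 1.59% of windows. The glucocorticoid response element-like pattern, present in 0.373% of windows, and the AP-1-like pattern TGANTCA, present in 6.34%, were not in these 6 windows. A match is a string of letters and says nothing of binding in these tissues.

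Depth was 15839958 to 27881158 counts on genes for a lung library and 15397992 to 26194384 for a liver library. The libraries with desisobutyryl ciclesonide stood apart in their reads: 0.930% to 1.25% of entries were unaligned in lung and 0.801% to 1.40% in liver, against 1.93% to 3.50% with dexamethasone or vehicle in lung and 1.88% to 3.32% in liver. Their files are also numbered in a separate series, so a library batch and this drug cannot be told apart. In lung, dexamethasone replicates 3 and 4 stood apart by 25 genes, none of them described here, that exceeded each of the other 10 lung libraries by 4-fold or more. These 25 genes summed to 2327 and 6969 CPM (read counts scaled to a common library size) in the 2 libraries and to at most 65.6 CPM elsewhere in lung, so the dexamethasone results in lung are also given without those libraries. The tissues were not checked against cell type markers, because the identifiers come without names. In whole tissue, fewer cells of a type and less RNA per cell cannot be told apart.

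Dexamethasone raised Nfkbia and Ccl2 in lung several fold, and Il1b by less. Nfkbia stood at 516, 820, 317 and 443 CPM in the dexamethasone libraries, against 73.4, 70.3, 54.6 and 68.2 CPM in the vehicle libraries. Every dexamethasone library lay above every vehicle library, and the dexamethasone libraries were also the more widely spread, at 524 ± 214 CPM against 66.6 ± 8.31 CPM (SD, n = 4 each). The change was 7.87-fold (log2 change 2.98, SE 0.26, 95% interval 5.32-fold to 11.6-fold; edgeR quasi-likelihood adjusted p = 1.64e-06). A larger rise was seen in 1.91% of the 16108 genes tested. Without dexamethasone replicates 3 and 4 the log2 change was 3.34.

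Ccl2, which attracts monocytes, stood at 25.6, 28.5, 20.1 and 21.5 CPM in dexamethasone lungs, against 6.14, 3.77, 2.30 and 4.52 CPM in vehicle lungs. The lowest dexamethasone library was above 3 times the highest vehicle library. The rise was 5.69-fold (log2 change 2.51, SE 0.26, 95% interval 3.84-fold to 8.44-fold; edgeR adjusted p = 4.54e-06), and it was 2.70 on the log2 scale without dexamethasone replicates 3 and 4. It ranked 459th among the genes tested, and leaving out any single library moved its log2 change no further than to 2.31 or 2.76.

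Il1b, an early cytokine of macrophages, had 4.33, 8.85, 4.73 and 5.36 CPM in dexamethasone lungs, against 5.04, 3.68, 2.40 and 3.21 CPM in vehicle lungs. The groups overlapped: dexamethasone replicates 1 and 3 lay below vehicle replicate 1. The fold was 1.62 (log2 change 0.69, SE 0.27; edgeR adjusted p = 0.0421). This call was lost in 8 of 16 alternative analyses, among them those without vehicle replicate 2, 3 or 4 or dexamethasone replicate 2 or 4, with adjusted p up to 0.158. Without dexamethasone replicates 3 and 4 together the log2 change was 0.89 (edgeR adjusted p = 0.0407).

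The other inflammatory genes tested in lung did not pass the test with dexamethasone. Icam1, which lets leukocytes adhere to endothelium, had 254, 252, 233 and 196 CPM with dexamethasone and 205, 201, 170 and 236 CPM with vehicle (log2 change 0.20, 95% interval -0.06 to 0.47). Tlr4, the receptor for bacterial lipopolysaccharide, had 14.9, 12.4, 15.4 and 13.8 CPM with dexamethasone and 13.7, 14.0, 15.3 and 13.2 CPM with vehicle. Its groups covered nearly the same range (log2 change 0.01, 95% interval -0.33 to 0.35). Ptgs2, the inducible cyclooxygenase of prostaglandin synthesis, ranged from 0.941 to 3.18 CPM with dexamethasone and from 1.32 to 4.32 CPM with vehicle. Its interval was wide (log2 change -0.12, 95% interval -1.10 to 0.86), and the vehicle libraries varied with an SD of 60.0% of their mean. Without dexamethasone replicates 3 and 4 the log2 changes were 0.33 for Icam1 (edgeR adjusted p = 0.0719), -0.023 for Tlr4 and -0.19 for Ptgs2, and none of these 3 passed. In all, 3 of the 6 genes tested were called, all higher, where 55.6% of all genes tested were called, 26.9% higher and 28.7% lower. The median log2 change was 0.45 over the 6 and -0.01 over all genes tested, whose median absolute change was 0.53. Over the genes described here and tested, the median was -0.68 in liver with dexamethasone. With desisobutyryl ciclesonide it was 0.27 in lung and -0.46 in liver. With dexamethasone in lung, groups did not overlap for 2 of the 6, and for 50.3% of all genes.

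**Figure D1:**
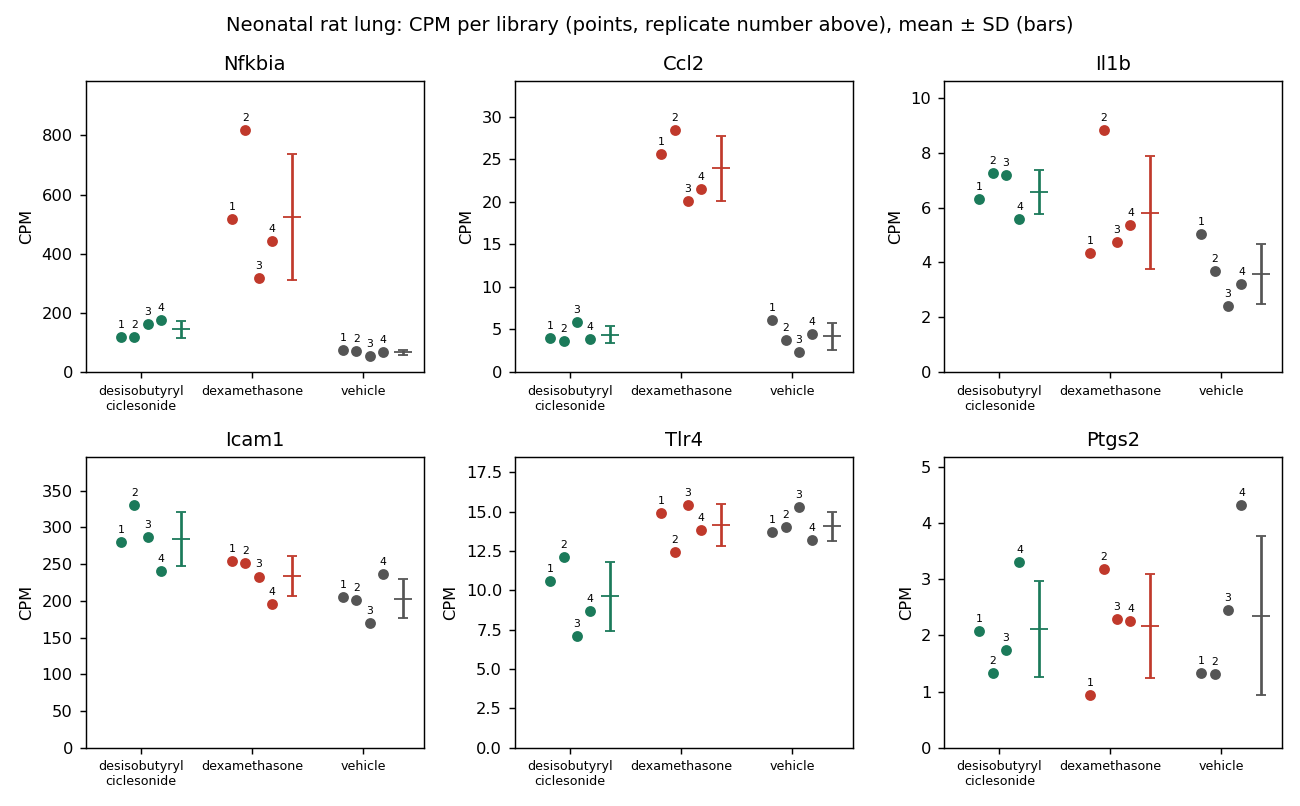
CPM of 6 genes in each lung library, one point per library with its replicate number, and the mean ± SD of the 4 libraries as a bar beside the points. Dexamethasone libraries stand above all others for Nfkbia (317 to 820 CPM) and Ccl2 (20.1 to 28.5 CPM), and desisobutyryl ciclesonide libraries stand below all others for Tlr4 (7.07 to 12.1 CPM).

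Nfkbia was also higher in lung with desisobutyryl ciclesonide, by a smaller factor, and Ccl2 showed no detectable change. As stated above, this drug and a library batch cannot be told apart. Nfkbia had 118, 120, 163 and 176 CPM with desisobutyryl ciclesonide, against the 54.6 to 73.4 CPM of vehicle lungs. These groups did not overlap. The rise was 2.16-fold (log2 change 1.11, SE 0.24, 95% interval 1.5-fold to 3.13-fold; edgeR adjusted p = 0.00701). Replicates 3 and 4 were the higher ones, and with both left out the log2 change was 0.84 (edgeR adjusted p = 0.106). Ccl2 had 4.03, 3.68, 5.89 and 3.91 CPM with desisobutyryl ciclesonide, within the range of vehicle lungs (log2 change 0.06, 95% interval -0.50 to 0.62).

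Icam1 and Il1b were also higher and Tlr4 was lower in lung with desisobutyryl ciclesonide, by modest amounts. Icam1 had 280, 330, 287 and 240 CPM, each above the highest vehicle library at 236 CPM, a 1.40-fold rise (log2 change 0.48, SE 0.12; edgeR adjusted p = 0.0138; 0.0523 without vehicle replicate 3). Il1b had 6.30, 7.26, 7.2 and 5.57 CPM, each above the 5.04 CPM of the highest vehicle library (log2 change 0.88, SE 0.27, 1.84-fold; edgeR adjusted p = 0.0323). Tlr4 had 10.6, 12.1, 7.07 and 8.69 CPM, each below the 13.2 CPM of the lowest vehicle library (log2 change -0.54, SE 0.16, to 0.687 of the vehicle level; edgeR adjusted p = 0.0271). The Il1b and Tlr4 calls were each lost in 7 of 16 alternative analyses, for both genes including those without vehicle replicate 2, 3 or 4 or desisobutyryl ciclesonide replicate 3. The Tlr4 call was also lost without vehicle replicate 1 or desisobutyryl ciclesonide replicate 4, and the Il1b call without desisobutyryl ciclesonide replicate 1 or 2. Ptgs2 had 1.33 to 3.31 CPM with desisobutyryl ciclesonide and was not called (log2 change -0.16, 95% interval -1.15 to 0.82).

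With desisobutyryl ciclesonide 4 of the 6 genes tested in lung were thus called, 3 higher and 1 lower, against 24.1% of all genes tested, 11.8% higher and 12.3% lower. The groups did not overlap for these 4, and for 33.2% of all genes. The count of 4 was 2 without vehicle replicate 2 or 4 or desisobutyryl ciclesonide replicate 3 and 1 without vehicle replicate 3. The share of all genes called fell as well, to 18.0%, 16.9%, 15.6% and 17.0% in the same order. With desisobutyryl ciclesonide replicates 3 and 4 both left out, Icam1 alone was called (log2 change 0.59, edgeR adjusted p = 0.0375). In that fit 6.65% of all genes were called.

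With the drugs set directly against each other in lung, at their different doses, Nfkbia, Ccl2 and Tlr4 were lower with desisobutyryl ciclesonide. Drug and library batch cannot be told apart in this comparison. For Nfkbia the 118 to 176 CPM with desisobutyryl ciclesonide lay below the 317 to 820 CPM with dexamethasone (log2 difference -1.86, SE 0.25; edgeR adjusted p = 8.22e-05; -2.22 without dexamethasone replicates 3 and 4). For Ccl2 the 3.68 to 5.89 CPM with desisobutyryl ciclesonide lay below the 20.1 to 28.5 CPM with dexamethasone (log2 difference -2.45, SE 0.26; edgeR adjusted p = 1.30e-05; -2.63 without those libraries). For Tlr4 the ranges of 7.07 to 12.1 and 12.4 to 15.4 CPM also did not overlap (log2 difference -0.55, SE 0.16; edgeR adjusted p = 0.0118). The Tlr4 call was lost without dexamethasone replicates 3 and 4 (-0.51, edgeR adjusted p = 0.0568) and without desisobutyryl ciclesonide replicates 3 and 4 (-0.31, edgeR adjusted p = 0.142). Il1b, Icam1 and Ptgs2 did not pass the test. The 95% interval of the difference was -0.39 to 0.76 for Il1b, 0.01 to 0.55 for Icam1 and -1.03 to 0.95 for Ptgs2 on the log2 scale. Without dexamethasone replicates 3 and 4 the differences were -0.00078 for Il1b, 0.16 for Icam1 and 0.038 for Ptgs2, again not called. Icam1 passed without desisobutyryl ciclesonide replicate 4 (edgeR adjusted p = 0.0345). Of the 6 genes, 3 were thus called lower with desisobutyryl ciclesonide. Between the drugs 49.5% of all genes in lung were called, 24.4% of all genes in the direction of these 3. Groups did not overlap for these 3 genes, and for 43.9% of all genes.

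**Figure D2:**
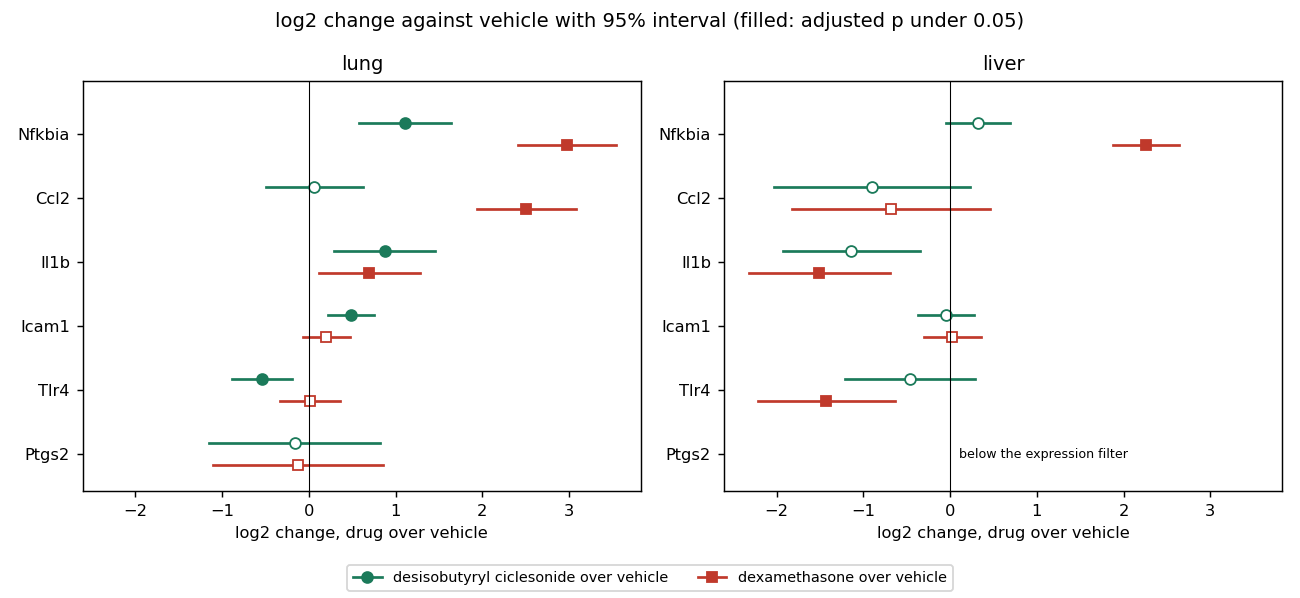
Log2 change of each gene, drug over vehicle, in lung (left) and liver (right), with its 95% interval, filled where the edgeR adjusted p was under 0.05. Nfkbia lies to the right of 0 with dexamethasone in both tissues (2.98 in lung, 2.26 in liver), and Il1b lies right of 0 in lung and left of 0 in liver.

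In liver dexamethasone again raised Nfkbia, while it lowered Il1b and Tlr4. Nfkbia had 94.1, 117, 76.2 and 107 CPM with dexamethasone, against 24.1, 22.9, 15.3 and 20.3 CPM with vehicle. The groups did not overlap, and the rise was 4.78-fold (log2 change 2.26, SE 0.18, 95% interval 3.67-fold to 6.23-fold; edgeR adjusted p = 4.58e-07). A larger rise was seen in 2.60% of the 13734 genes tested in liver.

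Il1b had 4.20, 6.25, 3.02 and 3.41 CPM in dexamethasone livers, against 14.5, 8.0, 10.4 and 14.7 CPM in vehicle livers. Each dexamethasone library lay below each vehicle library, and Il1b fell by 1.51 on the log2 scale (SE 0.38, 2.84-fold lower, edgeR adjusted p = 0.00478). Tlr4 had 0.663, 0.470, 1.69 and 0.925 CPM in dexamethasone livers, against 2.91, 2.43, 2.94 and 2.13 CPM in vehicle livers. These groups did not overlap either, though dexamethasone replicate 3 came near the vehicle range. Tlr4 fell by 1.43 on the log2 scale (SE 0.37, 2.69-fold lower, edgeR adjusted p = 0.00530), on 70 counts over the 4 dexamethasone libraries and 193 over the vehicle libraries. Both falls stayed past the threshold in all 15 alternative analyses, with adjusted p of at most 0.0175 for Il1b and 0.0162 for Tlr4.

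Ccl2 and Icam1 were not called in liver with dexamethasone. Ccl2 had 1.47, 0.269, 0.888 and 1.04 CPM with dexamethasone and 2.03, 1.76, 1.56 and 0.533 CPM with vehicle (log2 change -0.68, 95% interval -1.82 to 0.46). These values rest on 4 to 37 counts per library, and the groups overlapped. Icam1 had 26.4 to 39.3 CPM with dexamethasone and 24.5 to 37.8 CPM with vehicle (log2 change 0.02, 95% interval -0.30 to 0.35). Of the 5 genes tested in liver, 1 was thus called higher and 2 lower, where 22.5% of all genes were called higher, 24.9% lower and 47.5% in either direction. Groups did not overlap for these 3, and for 42.5% of all genes.

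Ptgs2 fell below the expression filter in liver. It had 6, 31, 22 and 17 counts in dexamethasone livers (0.442, 2.08, 0.977 and 0.983 CPM) and 6, 5, 2 and 5 counts in vehicle livers (0.329, 0.258, 0.111 and 0.267 CPM). The CPM values did not overlap, which also held for 42.5% of the genes past the filter. In a fit of all 20386 genes with a count in liver, Ptgs2 was higher with dexamethasone by 2.17 on the log2 scale (SE 0.58, 95% interval 0.96 to 3.38; edgeR adjusted p = 0.00570). Of all genes in that fit, 32.3% were called with dexamethasone, in either direction. With desisobutyryl ciclesonide it had 4, 4, 3 and 2 counts (0.0795 to 0.212 CPM) and was not called against vehicle in that fit (log2 change -0.51, 95% interval -1.88 to 0.86).

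**Figure D3:**
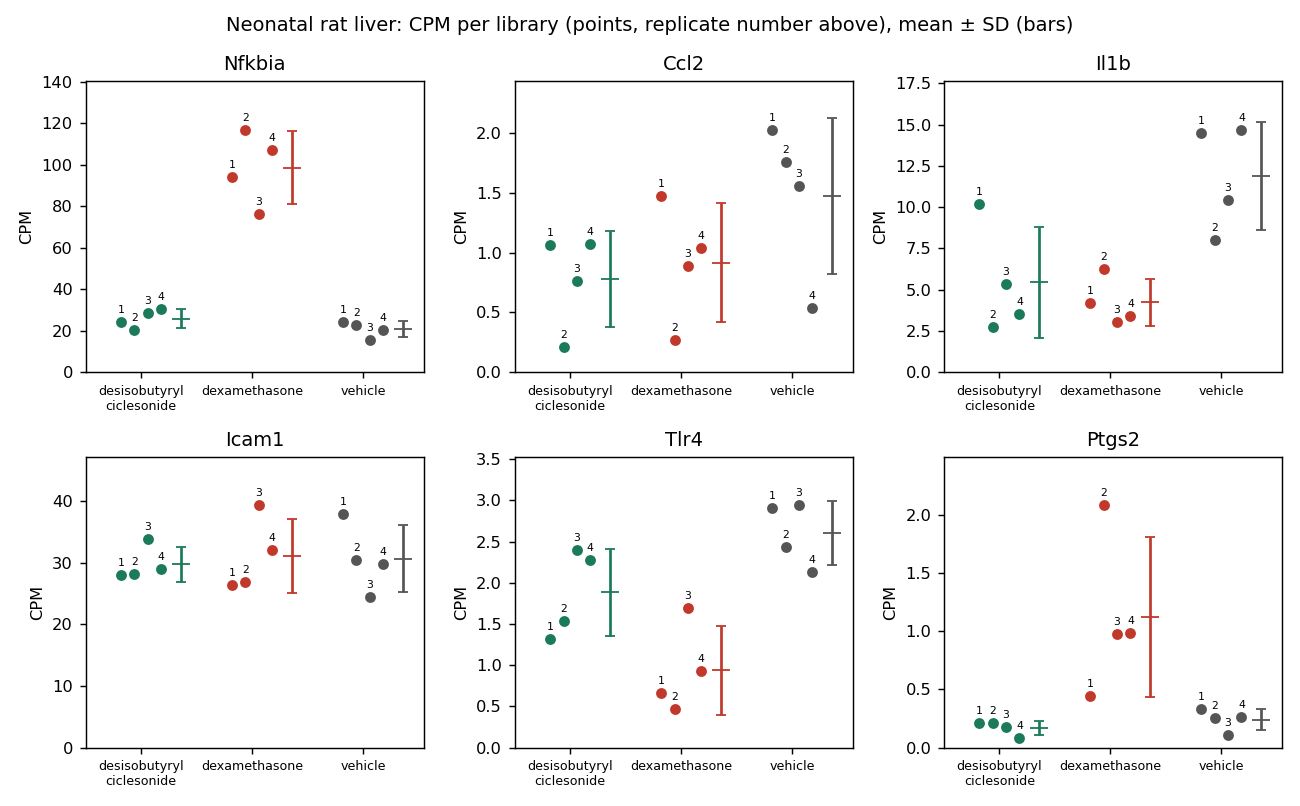
CPM of 6 genes in each liver library, one point per library with its replicate number, and the mean ± SD of the 4 libraries as a bar beside the points. Dexamethasone libraries stand above vehicle for Nfkbia (76.2 to 117 CPM) and Ptgs2 (0.442 to 2.08 CPM) and below vehicle for Il1b (3.02 to 6.25 CPM) and Tlr4 (0.470 to 1.69 CPM). For Ptgs2, dexamethasone replicate 1 and vehicle replicate 1 each had 6 counts, so their order rests on the scaling.

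Desisobutyryl ciclesonide gave 0 calls among the 5 genes tested in liver by edgeR, where 4.52% of all genes were called, 2.09% higher and 2.43% lower. Groups overlapped for all 5, and did not for 15.7% of all genes. Il1b had an unadjusted edgeR p of 0.00807 and was not called by edgeR after adjustment. It was called by DESeq2 (adjusted p = 0.0315), where 8.67% of all genes were called. It was called by limma-voom as well (adjusted p = 0.0376), where 4.89% of all genes were called. Il1b had 10.2, 2.71, 5.33 and 3.50 CPM with desisobutyryl ciclesonide, against 8.0 to 14.7 CPM with vehicle. Replicate 1 alone reached into the vehicle range (log2 change -1.14, SE 0.37; edgeR adjusted p = 0.0972). Without that replicate the log2 change was -1.64 (edgeR adjusted p = 0.0128), and over the 15 alternatives the adjusted p ran from 0.0128 to 0.218. Nfkbia had 24.3, 20.2, 28.3 and 30.5 CPM with desisobutyryl ciclesonide, overlapping the 15.3 to 24.1 CPM of vehicle livers (log2 change 0.32, 95% interval -0.05 to 0.69). For the others the log2 changes were -0.90 for Ccl2 (95% interval -2.04 to 0.23), -0.46 for Tlr4 (-1.21 to 0.28) and -0.05 for Icam1 (-0.37 to 0.28).

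Against dexamethasone in liver, at the different doses, Nfkbia was lower and Tlr4 higher with desisobutyryl ciclesonide. Here too drug and library batch cannot be told apart. The 20.2 to 30.5 CPM of Nfkbia with desisobutyryl ciclesonide lay below the 76.2 to 117 CPM with dexamethasone (log2 difference -1.93, SE 0.18; edgeR adjusted p = 1.57e-06). Tlr4 had 1.32, 1.54, 2.40 and 2.27 CPM with desisobutyryl ciclesonide and 0.470 to 1.69 CPM with dexamethasone, with dexamethasone replicate 3 inside the other group's range (log2 difference 0.96, SE 0.37; edgeR adjusted p = 0.0456). That call was lost in 8 of 15 alternatives, with adjusted p up to 0.114, among them those without dexamethasone replicate 1, 2 or 4 or desisobutyryl ciclesonide replicate 2, 3 or 4. In the fit of all genes with a count, 31.7% of genes were called between the drugs, in either direction. There Ptgs2 was lower with desisobutyryl ciclesonide by a log2 difference of -2.68 (SE 0.61; edgeR adjusted p = 0.00152). Ccl2, Il1b and Icam1 were not called, with 95% intervals of -1.40 to 0.95, -0.45 to 1.18 and -0.40 to 0.26. Between the drugs 46.3% of all genes in liver were called, 23.8% as higher and 22.5% as lower. Of the 5 genes tested, 1 was called higher and 1 lower, and groups did not overlap for Nfkbia, and for 41.6% of all genes.

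The responses differed between the tissues for Ccl2, Il1b and Tlr4 with dexamethasone and for Il1b with desisobutyryl ciclesonide. The test took the change in lung less the change in liver over all 24 libraries. The changes quoted beside each difference come from the fits of single tissues, so they need not subtract to it exactly. With dexamethasone the log2 change of Ccl2 was 2.51 in lung and -0.68 in liver, a difference of 3.21 (SE 0.60; edgeR adjusted p = 0.000269). That of Il1b was 0.69 in lung and -1.51 in liver, a difference of 2.22 (SE 0.48; edgeR adjusted p = 0.00105). That of Tlr4 was 0.01 in lung and -1.43 in liver, a difference of 1.45 (SE 0.39; edgeR adjusted p = 0.00579). Without lung dexamethasone replicates 3 and 4 the differences were 3.41, 2.42 and 1.42, all past the threshold. Among all genes 34.0% were called in this test, 17.0% in the direction of these 3.

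With desisobutyryl ciclesonide the log2 change of Il1b was 0.88 in lung and -1.14 in liver, a difference of 1.98 (SE 0.47; edgeR adjusted p = 0.0181), where 4.38% of all genes were called, 2.05% higher and 2.33% lower. A larger difference in this direction was seen in 0.914% of the 13245 genes tested. It stayed past the threshold in all 22 alternatives, with adjusted p of at most 0.0406. Ccl2, Tlr4 and Icam1 were not called, at 0.92, -0.12 and 0.49. For Ptgs2, in the fit of all genes with a count in each tissue, the dexamethasone response in lung less that in liver was -2.35 (SE 0.72; edgeR adjusted p = 0.0171). Of all genes in that fit, 23.5% were called, in either direction.

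For Nfkbia the lung change exceeded the liver change by 0.74 with dexamethasone and 0.75 with desisobutyryl ciclesonide, which did not pass the test (edgeR adjusted p = 0.0712 and 0.194). Lung and liver libraries of the same number deviate together, and with the pup kept as a block the differences were 0.66 and 0.73, which passed (edgeR adjusted p = 0.00753 and 0.0223). Of the 23 alternatives for the dexamethasone difference, that block included, 5 passed and 18 did not. The others that passed were those without lung dexamethasone replicates 3 and 4 (1.11), without lung dexamethasone replicate 3 (0.94), without liver vehicle replicate 3 (0.86) and with library totals alone (0.86). The smallest difference was 0.47, without lung dexamethasone replicate 2 (edgeR adjusted p = 0.178), and limma-voom gave 0.66 (adjusted p = 0.119).

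**Figure D4:**
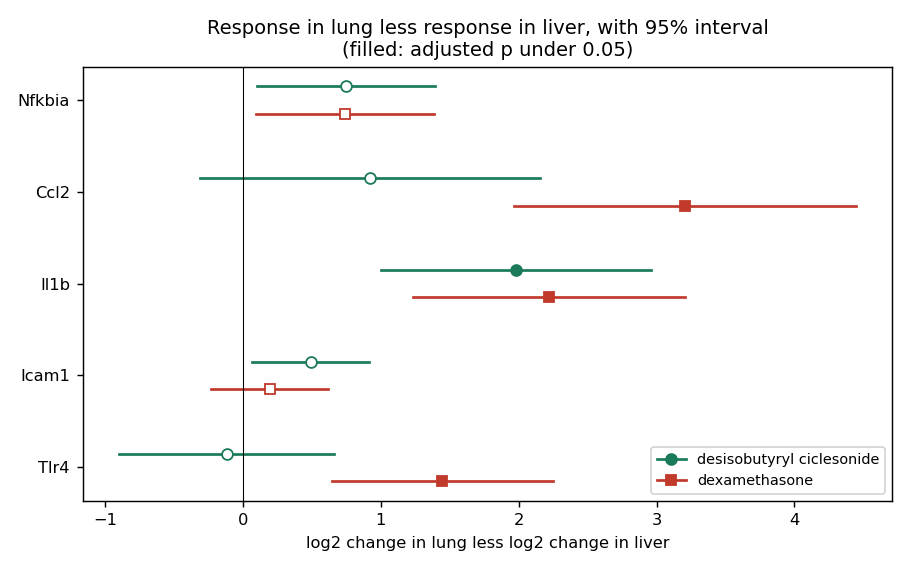
Log2 change in lung less log2 change in liver for 5 genes, with 95% intervals, filled where the edgeR adjusted p was under 0.05. Il1b lies right of 0 for both drugs (1.98 with desisobutyryl ciclesonide, 2.22 with dexamethasone), and Ccl2 lies furthest right with dexamethasone (3.21).

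In the vehicle groups Icam1, Tlr4 and Ptgs2 stood higher in lung than in liver, and Il1b stood lower. On a scale common to all 24 libraries, Il1b averaged 2.28 ± 0.709 CPM in vehicle lung and 18.4 ± 5.00 CPM in vehicle liver (SD, n = 4 each; log2 difference -3.01, SE 0.35; edgeR adjusted p = 6.71e-08). Icam1 averaged 130 ± 17.5 CPM in vehicle lung and 47.4 ± 8.51 CPM in vehicle liver (log2 difference 1.45; edgeR adjusted p = 6.40e-09). The log2 difference was 1.15 for Tlr4 and 1.99 for Ptgs2 (edgeR adjusted p = 0.000483 and 0.00206). Ptgs2 passed the expression filter over all 24 libraries but not that of liver alone. It was thus tested here because of its level in lung, the side on which it was called. Its level in vehicle liver rests on 18 counts over the group, against 210 in vehicle lung. Nfkbia and Ccl2 were not called, at 0.41 and 0.23, though Nfkbia passed with the replicate number as a block (0.34, edgeR adjusted p = 0.00949). The size of these differences rests on the scaling: with library totals alone the median of all genes moved by 1.24 on the log2 scale towards lung, Il1b was at -1.77, and Nfkbia and Ccl2 were called higher in lung at 1.65 and 1.47. Between these groups 70.8% of all genes were called, 39.8% higher and 31.1% lower in lung. Groups did not overlap for the 4 genes called, and for 68.6% of all genes.

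Il6 was at the edge of detection throughout. It had 1, 0 and 5 counts over the 4 lung libraries with desisobutyryl ciclesonide, dexamethasone and vehicle, and 1, 0 and 4 counts over the corresponding liver libraries. The 0 counts with dexamethasone allow a level of up to 0.0325 CPM in lung and 0.0401 CPM in liver, from 3 counts over the group and for counting error only. Il6 passed the expression filter in neither tissue and no difference was detectable at this depth.

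Some libraries were the highest or lowest of their group for several of 6 genes (Il6 left aside), and no chance value was computed for this. In dexamethasone lungs replicate 2 was the highest of the 4 for 4 of 6 genes, Ccl2, Il1b, Ptgs2 and Nfkbia. In dexamethasone livers replicate 2 was the highest for 3 of 6, again Il1b, Ptgs2 and Nfkbia. In vehicle lungs replicate 3 was the lowest for 4 of 6, Ccl2, Il1b, Icam1 and Nfkbia, and replicate 1 the highest for 3. In vehicle livers replicate 1 was the highest for 4 of 6, Ccl2, Ptgs2, Icam1 and Nfkbia, and replicate 3 the lowest for 3. With desisobutyryl ciclesonide, replicate 2 was the highest for 3 in lung and the lowest for 3 in liver. For Nfkbia the SD was 40.7% of the mean in dexamethasone lungs, against 12.5% in vehicle lungs.

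Outside the 9 genes, the identifier whose 6 group means followed Nfkbia most closely was ENSRNOG00000006204, out of 14806 with at least 2 CPM in some group. Its group means on the log2 scale, with 0.5 CPM added to each value and centred within each tissue, differed from those of Nfkbia by a root mean square of 0.143. The added 0.5 CPM shrinks changes at low levels, such as those of this identifier in liver. In lung the identifier averaged 22.3 CPM with desisobutyryl ciclesonide, 83.4 CPM with dexamethasone and 9.16 CPM with vehicle. In liver it averaged 2.82, 8.94 and 1.41 CPM in the same order of groups. The files do not pair this identifier with a name.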

How the data were processed

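Libraries were directional (dUTP) and made from poly(A) RNA of Trizol extracts, per the labels' protocols. Cutadapt, HISAT2, HTSeq and the build mRatBN7.2 are named in the submitters' processing notes. Versions and the strand setting are not given in the sources used here, so reads of overlapping or antisense genes may be shared. The deposited values are whole-number counts per Ensembl gene identifier as the authors made them, followed by 5 summary rows that took 16.8% to 31.8% of entries and were left out of library sizes and tests.

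The genes and lists were chosen with earlier results of these data known. All 9 genes are named, called or not, together with the identifier closest to Nfkbia in its 6 group means; the search planned for Dusp1 was not made. Of 47357 RefSeq genes at hand, 0 carry an Ensembl identifier found in the files, so planned lists of other pathway genes and of cell type markers were not analysed here. After edgeR's default filter on low counts and TMM scaling, edgeR 4.0.16 in R 4.3.3 fitted a robust quasi-likelihood model to the 12 libraries of a tissue, or to all 24 for differences between tissues. P-values were adjusted over all genes tested by the Benjamini-Hochberg method at 0.05. The steps were also run on simulated independent libraries, and the outcome of that run is not given here. CPM are on TMM-scaled totals of the tissue's 12 libraries unless stated. Alternatives used other scalings, DESeq2 1.42.0, limma-voom (limma 3.58.1), no expression filter, only the groups compared, a replicate block and fewer libraries. Deviations from the group mean correlated between a lung library and the same-numbered liver library of its treatment in 12 of 12 cases (Pearson r from 0.114 to 0.303 across 13245 genes, which are not independent), so numbers were taken to mark pups across tissues, which the labels do not state. The labels name no litters, so p-values measure the spread between these libraries. Counts of the 36 replicate pairs differed beyond sampling noise, with a chi-square of at least 11.6 per degree of freedom.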

Additional observations from a re-analysis of the deposited data

Results flagged for a closer look

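With dexamethasone the responses of lung and liver differed, by the direct test of the lung change less the liver change, for Ccl2 (log2 difference 3.21), Il1b (2.22) and Tlr4 (1.45). With desisobutyryl ciclesonide they differed for Il1b (1.98).

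Single libraries lay apart from the other 3 of their group in 5 of 40 groups checked. Chance flags about 1 in 20 groups, but this rate does not hold for 3 of the 5, which are Il6, where 1 library with any count among libraries at 0 is always picked out. Ccl2 stood at 5.89 CPM in lung desisobutyryl ciclesonide replicate 3, against 3.68 to 4.03 CPM in the others. Icam1 stood at 33.9 CPM in liver desisobutyryl ciclesonide replicate 3, against 28 to 28.9 CPM in the others. The Il6 values rest on 1 to 4 counts: 0.0663 CPM in lung desisobutyryl ciclesonide replicate 4, 0.0529 CPM in liver desisobutyryl ciclesonide replicate 1 and 0.222 CPM in liver vehicle replicate 3, with 0 counts in the others of each group.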

How the results depend on the processing

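Of the 23 calls for single genes, 16 held under every alternative run and 0 changed sign. For the 26 values that were not called, sign changes are given below; the cause was not tested for any change. The number of genes called with desisobutyryl ciclesonide in lung (4) was 1 to 3 with 1 library left out and 1 without desisobutyryl ciclesonide replicates 3 and 4, an alternative chosen after seeing the data. In liver (0) it was 1 with DESeq2, 1 with limma-voom and 0 to 1 with 1 library left out. Between the drugs in liver (2) it was 1 to 3 with 1 library left out and 1 with only the 8 libraries compared. For the response in lung less that in liver it was 3 to 5 with 1 library left out for dexamethasone (3) and 2 with the pup as replicate block for desisobutyryl ciclesonide (1). The 5 was without liver vehicle replicate 3, where 33.6% of all genes were called. That 5, and the 3 between the drugs in liver, each include a gene that was not tested in the main fit. These counts are therefore not over the same genes.

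Over all genes, 3884 were called with desisobutyryl ciclesonide in lung, against 2564 without its replicate 3 and 1118 without its replicates 3 and 4. In liver 621 were called, against 1191 with DESeq2, 358, 295 and 374 without vehicle replicate 2, 3 or 4, and 409, 379 and 322 without desisobutyryl ciclesonide replicate 2, 3 or 4. For its response in lung less that in liver 580 were called, against 960 with DESeq2.

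Within a tissue, same-numbered libraries of different treatments had r from -0.257 to 0.319 in lung and -0.134 to 0.142 in liver. The value was above 0.1 for 6 of 12 pairs in lung and 1 of 12 in liver. Whether the same number gave the best match was not computed within a tissue, so these values do not settle pairing there. The replicate block within a tissue changed no call. Across tissues the block added the 2 Nfkbia differences given above and vehicle Nfkbia (0.34), and changed no other call.

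With library totals alone, Tlr4 in lung with dexamethasone was at -0.080, Ccl2 in lung with desisobutyryl ciclesonide at -0.029, and Icam1 in liver at -0.20 with dexamethasone and 0.10 between the drugs; the median of all genes moved by -0.23 for dexamethasone and 0.19 between the drugs in liver. Without lung dexamethasone replicates 3 and 4, Tlr4 with dexamethasone was at -0.023, and between the drugs Il1b was at -0.00078 and Ptgs2 at 0.038. Without lung desisobutyryl ciclesonide replicates 3 and 4, Ccl2 was at -0.12.

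With 1 library left out, log2 changes in lung ran from -0.36 to 0.37 (Ptgs2) and -0.018 to 0.066 (Tlr4) with dexamethasone, from -0.15 to 0.30 (Ccl2) and -0.46 to 0.32 (Ptgs2) with desisobutyryl ciclesonide, and from -0.33 to 0.19 (Ptgs2) between the drugs. In liver Icam1 ran from -0.11 to 0.14 with dexamethasone, from -0.14 to 0.070 with desisobutyryl ciclesonide and from -0.14 to 0.063 between the drugs, where Ccl2 ran from -0.51 to 0.085 and Il1b from -0.13 to 0.62. The response of Tlr4 to desisobutyryl ciclesonide in lung less that in liver ran from -0.26 to 0.11, and Ccl2 in vehicle lung against vehicle liver from -0.094 to 0.43. Counts were lowest for Il6 in both tissues (0 to 5 over a group) and for Ptgs2 in liver (13 to 76). For these and other low counts, counting error was not separated from the spread between libraries.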
